A study of Homo sapiens with 12 samples.

Results

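The genes described here are the protein-coding Wnt ligands and Frizzled receptors, taken by symbol (WNT or FZD followed by digits and an optional letter), with 25 named co-receptors, intracellular components, transcription factors and regulators of the pathway. They made up 54 of the 58302 genes in the count table, namely 19 ligands, 14 receptors and co-receptors, 5 genes of β-catenin and its destruction complex, 4 TCF/LEF factors, the gene *TCF4*, and 11 regulators, and the rule used no measured value. Wnt ligands are secreted lipid-modified proteins that bind a Frizzled receptor together with LRP5 or LRP6 (the β-catenin arm) or with ROR1 or ROR2 (arms that do not use β-catenin). Without a ligand, a complex built on APC and axin lets the kinase GSK3β mark β-catenin for destruction, and when a ligand is bound β-catenin accumulates and switches on genes through TCF/LEF factors, among them several of the pathway's own inhibitors. In squamous and other epithelia the pathway is known for its part in stem cell renewal, and *WNT5A* is the best known ligand of the β-catenin-independent arms.

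RNA of H520 cells, which derive from a human squamous lung cancer, was sequenced in 12 libraries that the labels put in 4 groups of 3. Both lines carried a stable construct, *L1-FGGY* (a transcript that joins an L1 mobile element to the gene *FGGY*) in OV-L1-FGGY and an empty vector in OV-CTRL. OV-L1-FGGY cells were given DMSO, the 12-lipoxygenase inhibitor ML355 at 10 μM, or the reverse transcriptase inhibitor NVR at 450 μM, and the control cells DMSO. The labels give 0.2% DMSO for all 12 libraries, those with an inhibitor included, and the medium was replaced 5 h after seeding. The label of the controls gives CTRL and DMSO alone, taken here to mean OV-CTRL, and 6 of the 12 count columns name no line, only DMSO or NVR and a number. The NVR columns were matched to the only samples with that treatment, and the DMSO columns to the controls because the OV-L1-FGGY samples with DMSO have columns under their full titles. The length of treatment is not given, and neither the labels nor the methods say whether each line was 1 clone. The comparisons ask how the Wnt genes differed between the lines, which the study linked to Wnt signalling, and with each inhibitor. Values are CPM, the deposited counts scaled by TMM-adjusted library size, listed for replicates 1 to 3 in that order, and a gene is called higher or lower where edgeR's quasi-likelihood test gave an adjusted p under 0.01. The labels do not say that replicates were separate cultures, so that the p-values measure the spread between these libraries, which may be technical.

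Total counts ran from 16242082 to 27004768 per library. *FGGY*, the check of the construct, had means of 287 CPM in OV-L1-FGGY with DMSO and 318 CPM with ML355, but 4.25 CPM in the NVR-labelled libraries, against 3.41 CPM in OV-CTRL with DMSO. It therefore went against the OV-L1-FGGY label of the NVR libraries, which are called the NVR-labelled libraries throughout. Correlations of log2 CPM between libraries were 0.979 or more within a group, 0.939 to 0.972 between OV-CTRL and the NVR-labelled libraries, 0.932 to 0.942 between OV-L1-FGGY with DMSO and with ML355, and 0.706 to 0.774 across these pairs. Of 10 squamous markers, *KRT5*, *KRT6A*, *DSG3*, *PKP1* and *SERPINB13* had at most 3 counts in every library, and *SOX2* was at 16.02 ± 1.00 CPM (SD, n = 3) in OV-CTRL with DMSO and at 0 in all 6 OV-L1-FGGY libraries with DMSO or ML355. *KRT14* ran the other way, with 0 counts in all 6 libraries of OV-CTRL and labelled NVR, 4, 10 and 8 in OV-L1-FGGY with DMSO and 54, 29 and 63 with ML355. Of the 5 squamous markers tested, 4 were lower and 1 higher in OV-L1-FGGY than in OV-CTRL (36.2% and 32.5% of all genes tested were). The summed squamous list ran from 21.4 to 24.6 CPM in OV-CTRL, 14.2 to 20.8 in the NVR-labelled libraries, 1.91 to 2.47 in OV-L1-FGGY with DMSO and 2.37 to 4.52 with ML355. A list of 6 fibroblast genes summed higher in OV-L1-FGGY (in the same order, 20.4 to 25.6, 19.6 to 22.3, 341 to 359 and 112 to 122 CPM), with *LUM* and *DCN* near 0 in the first 2 groups and *COL1A2* at 3 counts or fewer in all 12 libraries. Summed endothelial markers were at 8.89 to 9.41 CPM in OV-L1-FGGY with DMSO and at most 0.690 in the other groups, leukocyte markers at 2.37 to 3.81 CPM in OV-L1-FGGY with DMSO or ML355 and at most 0.156 in the others, and neuroendocrine markers at 7.55 to 10.9 CPM in OV-CTRL, 23.1 to 30.7 in the NVR-labelled libraries and at most 1.16 in the others. Differences between the pairs of groups thus came with differences in these markers and in most of the transcriptome, whose part in the Wnt results was not tested. In bulk RNA, fewer cells of a kind and less RNA per cell cannot be told apart.

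The study's own assays of the pathway included *WNT3A*, *WNT5A* and a gene named TCF4, and their 3 primer pairs are shown because they fix which genes those names stand for. The sequences are in lower case, 5′ to 3′, and positions are those of an exact match to GENCODE 44 transcripts on GRCh38.
Wnt3a forward: aactgcaccaccgtccac
Wnt3a reverse: aaggccgactccctggta
Wnt5a forward: ggtatatcacatgtctcattc
Wnt5a reverse: ggactttcctccctgctgccc
TCF4 forward: tgggggtgattttttttggcttt
TCF4 reverse: ggttcacgacgctaaagctattct
The Wnt3a pair lay in the coding sequence of *WNT3A*, in exon 2 (chr1:228022854-228022871) and exon 3 (chr1:228050657-228050674) on the plus strand, with a product of 74 bases. The Wnt5a pair lay in the 3′ UTR of *WNT5A*, in exon 5 on the minus strand (chr3:55469469-55469489 and chr3:55469392-55469412), with a product of 98 bases. Both TCF4 primers matched *TCF7L2* (chr10:112950683-112950705 in the 5′ UTR of exon 1 and chr10:113165966-113165989 across the end of the coding sequence in exon 15). In its canonical transcript their product is 1951 bases long. *TCF7L2* encodes the TCF/LEF factor whose protein is also called TCF-4. The gene with the symbol *TCF4* encodes a basic helix-loop-helix factor outside this family, so that both genes are given here and kept apart.

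Of the 54 genes, 45 had enough counts to be tested, and 44 of these were called in at least 1 of 4 comparisons (89.8% of all genes tested were), 7 of them in all 4 (8.74% of all genes). *RNF43*, a ubiquitin ligase that removes Frizzled from the cell surface, was the 1 tested gene called in none. OV-L1-FGGY against OV-CTRL, both with DMSO, gave 15 Wnt genes higher (33.3% of those tested, where 32.5% of all 17849 genes tested were higher) and 24 lower (53.3%, against 36.2% of all genes). Their median log2 fold change was -0.57, against -0.11 over all genes tested. ML355 against OV-L1-FGGY with DMSO gave 6 higher (13.3%, against 21.3% of all genes) and 17 lower (37.8%, against 23.5%), with a median of -0.54, against 0.00 over all genes. These comparisons share the OV-L1-FGGY libraries with DMSO.

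The NVR-labelled libraries against OV-CTRL with DMSO gave 6 Wnt genes higher (13.3%, against 14.5% of all genes) and 6 lower (13.3%, against 15.3%), with a median of -0.26 against 0.00. With the library size alone as scaling, the call was 3 higher and 8 lower, and the share of higher genes among all genes called moved from 48.8% to 36.3%. Against OV-L1-FGGY with DMSO, the same libraries gave 22 higher (48.9%, against 38.2%) and 17 lower (37.8%, against 35.4%), with a median of 0.45 against 0.08. Fits of the 2 groups compared alone, without the NVR-labelled libraries, gave 14 higher and 24 lower for OV-L1-FGGY against OV-CTRL, and 5 higher and 19 lower for ML355. The shares of all genes called in those fits are not given here. Because the filter keeps a gene that is present in 1 group alone, these counts describe the 45 genes that passed it and not all 54.

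**Figure D1:**
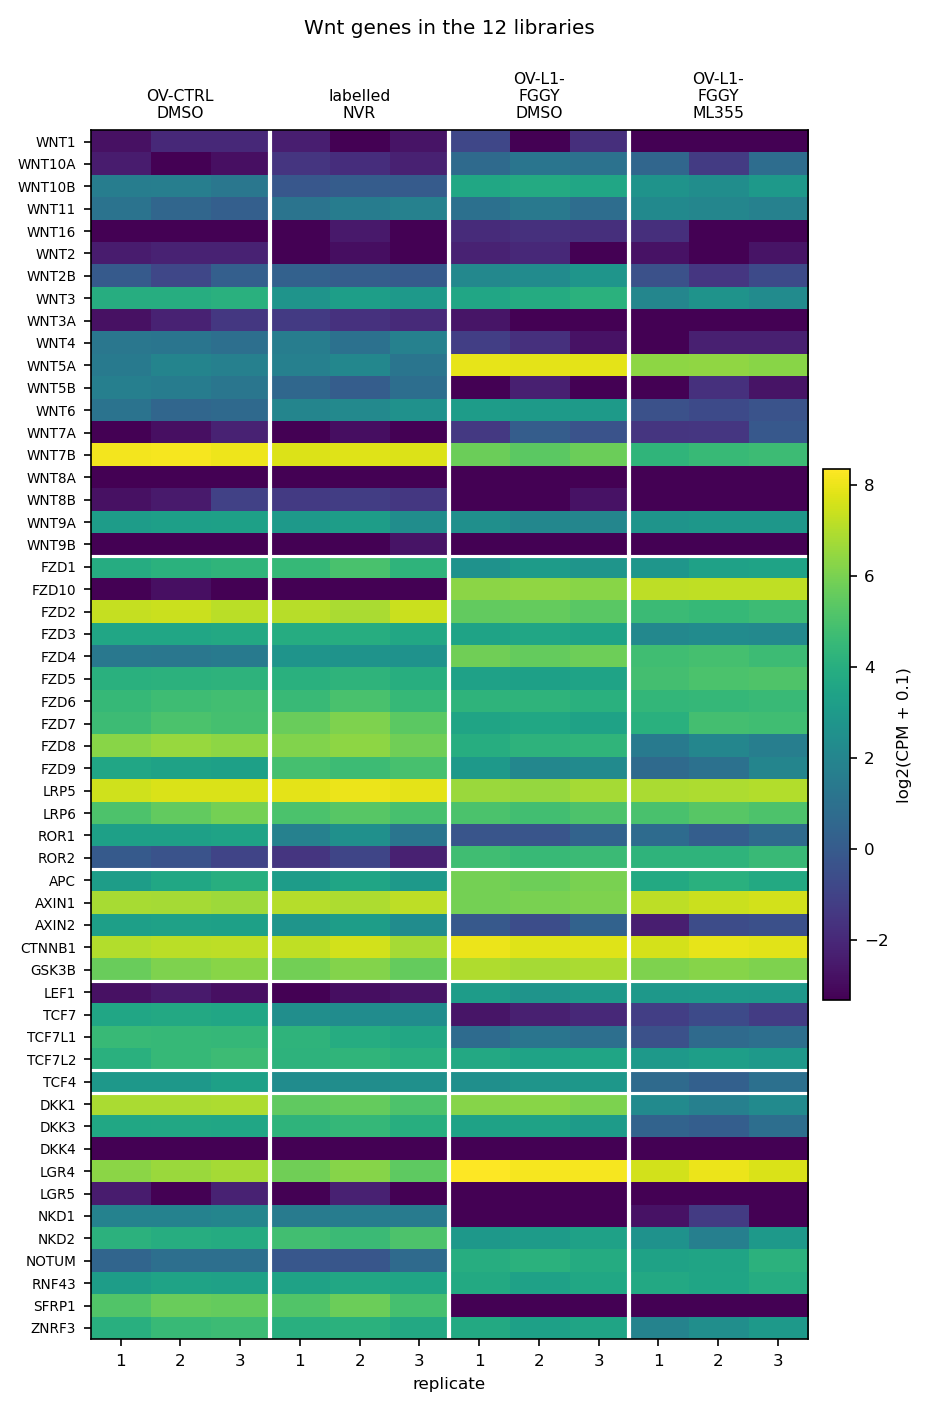
Levels of the 54 Wnt genes (rows, grouped by role between white lines) in the 12 libraries (columns, 3 replicates per group), as log2(CPM + 0.1) on the colour scale. The left 6 columns (OV-CTRL with DMSO and labelled NVR) and the right 6 (OV-L1-FGGY with DMSO and with ML355) differ in colour for genes such as *WNT5A*, *FZD10*, *LEF1* and *SFRP1*, and 11 of the 45 tested genes lie wholly above and 17 wholly below in the right 6.

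In 11 of the 45 tested genes (24.4%), all 6 libraries of OV-L1-FGGY with DMSO or ML355 lay above all 6 of the other 2 groups, as did 24.7% of all genes tested. In 17 (37.8%) they lay below, as did 28.5% of all genes, and in the other 17 the libraries overlapped. The genes above were *WNT5A*, *WNT7A*, *WNT10A*, *WNT10B*, *FZD4*, *FZD10*, *ROR2*, *CTNNB1*, *LEF1*, *LGR4* and *NOTUM*. Those below included *WNT4*, *WNT5B*, *WNT7B*, 5 receptors or co-receptors of the Frizzled and LRP families, *ROR1*, *AXIN2*, the TCF/LEF factors *TCF7*, *TCF7L1* and *TCF7L2*, and the inhibitors *SFRP1*, *NKD1*, *NKD2* and *DKK3*.

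The ligands were compared with each other per kilobase of exon, since longer transcripts collect more counts. The length is that of all annotated exons of a gene merged, which can exceed that of the transcripts expressed. Ranks and shares on this scale, here and for the other roles, thus depend in part on the annotation. On this scale the 19 ligands summed to 65.0 ± 2.65 CPM per kb (SD, n = 3) in OV-CTRL with DMSO, 51.4 ± 1.28 in the NVR-labelled libraries, 58.6 ± 1.19 in OV-L1-FGGY with DMSO and 23.7 ± 0.618 with ML355. *WNT7B*, a ligand of lung epithelium, made up 84.8% of the sum in OV-CTRL and 81.9% in the NVR-labelled libraries. In OV-L1-FGGY with DMSO it made up 16.6%, and *WNT5A* was first at 56.3%, having made up 0.70% in OV-CTRL. With ML355, *WNT5A* held 48.0% and *WNT7B* 19.1% of a smaller sum. Below them in OV-L1-FGGY with DMSO came *WNT10B* (4.90 CPM per kb) and *WNT6* (4.80), whose levels per length lay close together, then *WNT3* (2.71). No other ligand passed 2 CPM per kb in that group.

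**Figure D2:**
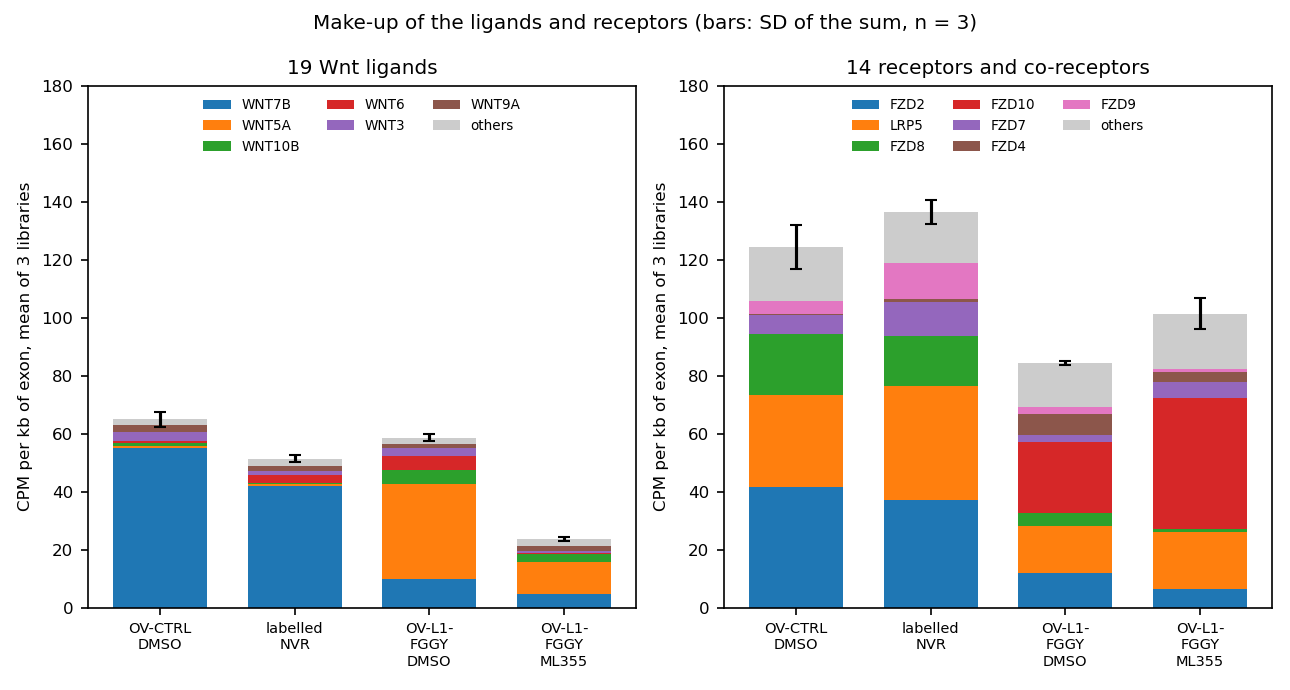
Stacked mean CPM per kb of exon (n = 3 libraries per group) of the ligands (left) and of the receptors and co-receptors (right), with the largest contributors in colour, the others in grey and the SD of the sum as an error bar. *WNT7B* fills most of the ligand bar in the 2 left groups and *WNT5A* is the largest part in the OV-L1-FGGY groups with DMSO and ML355, while *FZD10* is present in the receptor bars of those 2 groups only.

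*WNT5A* had the largest log2 fold change between the lines of the tested ligands. It was at 2.73, 3.79 and 3.26 CPM in OV-CTRL with DMSO and 3.25, 4.11 and 2.19 in the NVR-labelled libraries. In OV-L1-FGGY it was at 242, 233 and 233 CPM with DMSO and 81.5, 85.1 and 76.9 with ML355. The first 2 groups overlapped, all 6 libraries of OV-L1-FGGY with DMSO or ML355 were far above them, and the ML355 libraries all lay below those with DMSO. *WNT5A* was 72.3-fold higher in OV-L1-FGGY than in OV-CTRL (log2 fold change 6.17, standard error 0.18, edgeR adjusted p = 7.07e-14). It fell 2.91-fold with ML355 (log2 fold change -1.54, standard error 0.14, edgeR adjusted p = 2.06e-07), to a level still above every OV-CTRL library. The NVR-labelled libraries overlapped those of OV-CTRL and were not called (log2 fold change -0.01, standard error 0.19, edgeR adjusted p = 0.978).

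*WNT7B* differed the other way between the lines. Its values were 286, 289.7 and 265 CPM in OV-CTRL, 212, 218 and 213 in the NVR-labelled libraries, 53.2, 42.0 and 53.5 in OV-L1-FGGY with DMSO and 19.8, 23.5 and 25.8 with ML355. None of these 4 groups overlapped. It was 5.65-fold lower in OV-L1-FGGY than in OV-CTRL (log2 fold change -2.50, standard error 0.12, edgeR adjusted p = 2.86e-11) and fell a further 2.15-fold with ML355 (log2 fold change -1.11, standard error 0.12, edgeR adjusted p = 1.52e-06). *WNT3A*, the textbook activator of the β-catenin arm, was near the limit of detection. Its counts, not scaled, were 1, 3 and 7 in OV-CTRL, 6, 6 and 3 in the NVR-labelled libraries, 1, 0 and 0 in OV-L1-FGGY with DMSO and 0 in all 3 with ML355. It had too few counts to be tested, and no rise in OV-L1-FGGY was detectable at this depth, where the floor of 3 counts lay at 0.111 to 0.172 CPM.

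Among the other ligands higher in OV-L1-FGGY were *WNT10B*, *WNT6* and *WNT2B*, and all 3 fell with ML355. *WNT10B*, a ligand of the β-catenin arm, was at 3.03, 3.05 and 2.38 CPM in OV-CTRL, 0.801, 0.963 and 0.933 in the NVR-labelled libraries, 12.2, 14.1 and 12.0 in OV-L1-FGGY with DMSO and 6.31, 5.25 and 7.88 with ML355. The 4 groups did not overlap, with a log2 fold change of 2.18 between the lines (edgeR adjusted p = 3.06e-08) and -0.98 with ML355 (edgeR adjusted p = 0.000262). *WNT6* was at 2.06, 1.37 and 1.496 CPM in OV-CTRL, 3.90, 4.48 and 5.87 in the NVR-labelled libraries, 8.55, 8.204 and 8.01 in OV-L1-FGGY with DMSO and 0.641, 0.515 and 0.683 with ML355. With ML355 it was below every OV-CTRL library, 13.5-fold lower than with DMSO (log2 fold change -3.74, standard error 0.26, edgeR adjusted p = 1.07e-08), after a difference of 2.33 on the log2 scale between the lines (edgeR adjusted p = 9.03e-08). *WNT2B* was at 0.883, 0.469 and 1.07 CPM in OV-CTRL, 1.15, 1.000 and 0.878 in the NVR-labelled libraries, 4.24, 4.94 and 6.70 in OV-L1-FGGY with DMSO and 0.641, 0.258 and 0.525 with ML355. It was 6.55-fold higher in OV-L1-FGGY (edgeR adjusted p = 1.59e-06) and 11.2-fold lower with ML355 than with DMSO (edgeR adjusted p = 9.16e-07), where the last group overlapped OV-CTRL. Its exons overlap those of *ST7L* on the other strand over 21.5% of their length, and *ST7L* differed by a log2 fold change of 0.65 between the lines and 1.63 with ML355.

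*WNT10A*, which lies 6618 bases from *WNT6* on chromosome 2, had 2, 0 and 1 counts in OV-CTRL and 5, 5 and 2 in the NVR-labelled libraries, against 27, 42 and 40 in OV-L1-FGGY with DMSO and 27, 6 and 32 with ML355. The ratio of OV-L1-FGGY to OV-CTRL per scaled count was 48.7, with an exact 95% interval of 16.2 to 239.7 that covers counting error only, as do those given later (edgeR adjusted p = 4.49e-06). ML355 did not change it past the threshold (edgeR adjusted p = 0.164), and replicate 2 was the low library. *WNT7A*, another ligand of low level, had 3 counts or fewer in each OV-CTRL library and 0.664 ± 0.358 CPM (SD, n = 3) under DMSO in OV-L1-FGGY, a ratio of 12.7, with an exact 95% interval of 4.58 to 49.1 (edgeR adjusted p = 0.00103).

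*WNT3* was the ligand with like levels in both lines and a fall with ML355. It stood at 15.3, 15.6 and 17.1 CPM in OV-CTRL and 12.1, 14.4 and 17.4 in OV-L1-FGGY with DMSO, which overlapped (log2 fold change -0.13, standard error 0.18, edgeR adjusted p = 0.532). The values were 3.99, 6.39 and 4.94 with ML355 and 6.40, 9.33 and 7.57 in the NVR-labelled libraries, all below the DMSO libraries of both lines. The log2 fold change was -1.52 with ML355 (edgeR adjusted p = 7.75e-06) and -1.04 for the NVR-labelled libraries against OV-CTRL (edgeR adjusted p = 0.000398). *WNT9B*, which starts 46 bases from *WNT3* on chromosome 17, had 1 count in the 12 libraries.

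Lower in OV-L1-FGGY were *WNT4*, *WNT5B* and *WNT9A*. *WNT4* was at 2.40, 2.19 and 1.84 CPM in OV-CTRL, 2.95, 1.93 and 3.40 in the NVR-labelled libraries, 0.344, 0.210 and 0.0504 in OV-L1-FGGY with DMSO and 0, 0.103 and 0.105 with ML355, and the last 2 groups lay below the first 2 (log2 fold change -3.41, standard error 0.49, edgeR adjusted p = 9.87e-06). *WNT5B*, the closest relative of *WNT5A*, had 77, 75 and 60 counts in OV-CTRL and 28, 27 and 32 in the NVR-labelled libraries, against 0, 2 and 0 in OV-L1-FGGY with DMSO and 0, 4 and 1 with ML355. The ratio of OV-L1-FGGY to OV-CTRL was 0.0126, with an exact 95% interval of 0.00152 to 0.0462 (edgeR adjusted p = 6.55e-07), so that the 2 WNT5 genes differed between the lines in opposite directions. *WNT9A* was at 8.54, 9.54 and 9.82 CPM in OV-CTRL, 7.61, 8.89 and 5.16 in the NVR-labelled libraries, 5.51, 4.21 and 3.98 in OV-L1-FGGY with DMSO and 6.504, 7.06 and 7.15 with ML355. It was 2.04-fold lower in OV-L1-FGGY (edgeR adjusted p = 0.000199), and the ML355 libraries lay between the DMSO libraries of the lines without passing the threshold (edgeR adjusted p = 0.0198). DESeq2 called that rise (log2 fold change 0.62, adjusted p = 0.0090). *WNT11*, a ligand of the β-catenin-independent arms, was the 1 ligand called higher with ML355 in the main fit, from 2.04 ± 0.426 to 4.02 ± 0.585 CPM (SD, n = 3, edgeR adjusted p = 0.00758). That call was lost with the library size alone as scaling (edgeR adjusted p = 0.0157) and without replicate 1 or 3 of OV-L1-FGGY with DMSO or replicate 1 or 2 of ML355. The untested ligands *WNT1*, *WNT2*, *WNT8A*, *WNT8B*, *WNT9B* and *WNT16* had at most 34 counts each over the 12 libraries, and *WNT8A* had 0.

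The 14 receptors and co-receptors, all tested, summed to 124 ± 7.61 CPM per kb (SD, n = 3) in OV-CTRL with DMSO, 136 ± 4.17 in the NVR-labelled libraries, 84.4 ± 0.681 in OV-L1-FGGY with DMSO and 101 ± 5.42 with ML355. Between the lines 3 were higher in OV-L1-FGGY (*FZD10*, *FZD4* and *ROR2*) and 10 were lower, or 21.4% and 71.4% against 32.5% and 36.2% of all genes. With ML355, 3 rose (*FZD10*, *FZD5* and *FZD7*) and 5 fell (*FZD2*, *FZD3*, *FZD4*, *FZD8* and *FZD9*), or 21.4% and 35.7% against 21.3% and 23.5% of all genes. *FZD2* and *LRP5* made up 33.4% and 25.8% of the receptor level per length in OV-CTRL, and *FZD10* was first in OV-L1-FGGY at 29.1% with DMSO and 44.8% with ML355.

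*FZD10*, a Frizzled receptor of the β-catenin arm, was close to absent from OV-CTRL and led the receptors in OV-L1-FGGY. It had 0, 1 and 0 counts in OV-CTRL and 0 in all 3 NVR-labelled libraries, against 1387, 1624 and 1520 in OV-L1-FGGY with DMSO and 2925, 2968 and 2846 with ML355. In CPM the last 2 groups were at 79.6, 85.4 and 76.6 and 144, 153 and 149.5. All ML355 libraries were above those with DMSO, and the 1 count in OV-CTRL was in replicate 2. The ratio of OV-L1-FGGY to OV-CTRL was 6069.9, with an exact 95% interval of 1089 to 239801 (edgeR adjusted p = 5.46e-14), the NVR-labelled libraries were at least 567-fold lower than OV-L1-FGGY with DMSO at a floor of 3 counts per library (edgeR adjusted p = 7.44e-14), and ML355 raised the level 1.85-fold (log2 fold change 0.89, standard error 0.12, edgeR adjusted p = 1.65e-05).

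*FZD4* was at 2.48, 2.35 and 2.69 CPM in OV-CTRL, 6.40, 6.29 and 6.14 in the NVR-labelled libraries, 56.4, 48.1 and 54.0 in OV-L1-FGGY with DMSO and 27.2, 29.7 and 25.6 with ML355, with no overlap between any 2 groups. It was 21.1-fold higher in OV-L1-FGGY (edgeR adjusted p = 1.11e-13), fell 1.92-fold with ML355 (edgeR adjusted p = 3.12e-06) and was 2.51-fold higher in the NVR-labelled libraries than in OV-CTRL (edgeR adjusted p = 2.06e-06). *PRSS23*, on the other strand over 18.9% of the *FZD4* exon length, had log2 fold changes of 0.60, -1.34 and -0.87 there. The tyrosine kinase-like receptors of WNT5A, *ROR1* and *ROR2*, differed in opposite directions. *ROR2* was at 0.883, 0.704 and 0.422 CPM in OV-CTRL, 0.250, 0.444 and 0.1097 in the NVR-labelled libraries, 27.2, 23.0 and 24.7 in OV-L1-FGGY with DMSO and 18.97, 19.1 and 23.9 with ML355. *ROR1* was at 9.76, 9.85 and 10.9 CPM in OV-CTRL, 3.35, 5.63 and 2.25 in the NVR-labelled libraries, 0.746, 0.736 and 1.21 in OV-L1-FGGY with DMSO and 1.58, 1.03 and 1.52 with ML355. *ROR2* was 37.3-fold higher in OV-L1-FGGY (edgeR adjusted p = 1.65e-11) and *ROR1* 11.3-fold lower (edgeR adjusted p = 5.53e-08), and neither passed the threshold with ML355 (edgeR adjusted p = 0.207 and edgeR adjusted p = 0.176).

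*FZD2*, *FZD8* and *FZD9* were lower in OV-L1-FGGY and fell again with ML355. *FZD2* was at 160.3, 169 and 141 CPM in OV-CTRL, 137, 117 and 169 in the NVR-labelled libraries, 46.6, 48.5 and 41.4 in OV-L1-FGGY with DMSO and 25.0, 22.4 and 25.6 with ML355. *FZD8* was at 77.4, 95.2 and 83.1 CPM in OV-CTRL, 69.7, 83.1 and 56.8 in the NVR-labelled libraries, 15.5, 18.5 and 20.2 in OV-L1-FGGY with DMSO and 2.71, 4.07 and 3.05 with ML355. Both were lower in OV-L1-FGGY than in OV-CTRL (log2 fold change -1.78, edgeR adjusted p = 5.11e-09, and -2.24, edgeR adjusted p = 2.81e-09) and fell again with ML355 (-0.90, edgeR adjusted p = 3.64e-05, and -2.46, edgeR adjusted p = 2.32e-08), without overlap of either pair of groups. *FZD9* was at 11.8, 10.7 and 9.74 CPM in OV-CTRL, 30.5, 25.6 and 31.3 in the NVR-labelled libraries, 7.86, 4.10 and 4.69 in OV-L1-FGGY with DMSO and 1.53, 1.96 and 3.84 with ML355. The NVR-labelled libraries stood above all others (1.44 against OV-CTRL, edgeR adjusted p = 0.000212). Its lower level in OV-L1-FGGY (-0.96, edgeR adjusted p = 0.00304) and its fall with ML355 (-1.18, edgeR adjusted p = 0.00266) were less firm. The first was lost without replicate 2 or 3 of OV-L1-FGGY with DMSO or replicate 1 of OV-CTRL (edgeR adjusted p up to 0.0220), and the second without replicate 1 of OV-L1-FGGY with DMSO or replicate 1 or 2 of ML355.

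*FZD5* and *FZD7* were lower in OV-L1-FGGY than in OV-CTRL and rose with ML355. *FZD5* was at 17.1, 17.8 and 18.6 CPM in OV-CTRL, 17.2, 19.1 and 15.9 in the NVR-labelled libraries, 10.2, 9.73 and 10.7 in OV-L1-FGGY with DMSO and 29.1, 33.4 and 35.2 with ML355, so that ML355 took it above every library of the other groups (1.67, edgeR adjusted p = 2.13e-08). *FZD7* was at 25.9, 32.6 and 29.999 CPM in OV-CTRL, 50.7, 69.5 and 43.1 in the NVR-labelled libraries, 11.2, 12.3 and 10.4 in OV-L1-FGGY with DMSO and 17.0, 28.6 and 27.5 with ML355. It was highest in the NVR-labelled libraries (log2 fold change 0.89 against OV-CTRL, edgeR adjusted p = 0.00148), where it lost its call with the library size alone as scaling (edgeR adjusted p = 0.0151). It was 2.62-fold lower in OV-L1-FGGY (edgeR adjusted p = 1.01e-05) and 2.16-fold higher with ML355 (edgeR adjusted p = 0.000208). *FZD1* was at 15.0, 17.8 and 19.8 CPM in OV-CTRL, 22.3, 31.5 and 19.3 in the NVR-labelled libraries, 6.02, 8.52 and 6.70 in OV-L1-FGGY with DMSO and 6.90, 10.2 and 10.8 with ML355, lower in OV-L1-FGGY (-1.30, edgeR adjusted p = 3.62e-05) with no call for ML355 (edgeR adjusted p = 0.137). *FZD3* was at 11.8, 12.1 and 13.2 CPM in OV-CTRL, 15.1, 15.5 and 12.8 in the NVR-labelled libraries, 10.8, 11.9 and 10.98 in OV-L1-FGGY with DMSO and 4.29, 4.89 and 4.41 with ML355, and the ML355 libraries lay below all the others (-1.31, edgeR adjusted p = 1.45e-06). *FZD6* lay between 18.3 and 26.4 CPM in the means of the 4 groups, with a log2 fold change of -0.49 between the lines (edgeR adjusted p = 0.00615) that lost its call with the library size alone (edgeR adjusted p = 0.0540) and in 5 of 6 fits without 1 library, all but that without replicate 1 of OV-CTRL. The co-receptor *LRP5* was at 181, 209 and 204 CPM in OV-CTRL, 237, 257 and 234 in the NVR-labelled libraries, 96.4, 91.5 and 111 in OV-L1-FGGY with DMSO and 116, 121 and 129.8 with ML355, 1.99-fold lower in OV-L1-FGGY (edgeR adjusted p = 3.58e-07). *LRP6* had a log2 fold change of -0.57 between the lines (edgeR adjusted p = 0.00717), though its libraries overlapped. That call was lost with limma voom (adjusted p = 0.0123), with the library size alone as scaling (edgeR adjusted p = 0.0425) and in 5 of the 6 fits that left out a library, all but that without replicate 1 of OV-CTRL, with a log2 fold change of -0.36 without replicate 3 of OV-CTRL. Neither co-receptor was called with ML355 in the main fit, though DESeq2 called *LRP5* higher (log2 fold change 0.31, adjusted p = 0.0058).

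*CTNNB1*, which encodes β-catenin, was higher in OV-L1-FGGY by less than a doubling. It was at 130.3, 143 and 145 CPM in OV-CTRL, 151, 188 and 111 in the NVR-labelled libraries, 256, 218 and 219 in OV-L1-FGGY with DMSO and 193, 240.2 and 224 with ML355. Every OV-L1-FGGY library with DMSO or ML355 lay above every OV-CTRL library, by 1.66-fold with DMSO (log2 fold change 0.73, standard error 0.15, edgeR adjusted p = 0.000443). ML355 libraries overlapped those with DMSO (log2 fold change -0.07, standard error 0.15, edgeR adjusted p = 0.711). The NVR-labelled libraries lay on both sides of OV-CTRL (edgeR adjusted p = 0.608), with replicate 2 high and replicate 3 low.

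The genes of the destruction complex did not move together. *APC*, the scaffold, was at 9.04, 12.2 and 15.7 CPM in OV-CTRL, 8.71, 11.6 and 7.63 in the NVR-labelled libraries, 60.8, 55.6 and 63.5 in OV-L1-FGGY with DMSO and 13.7, 16.9 and 13.7 with ML355. It was 4.87-fold higher in OV-L1-FGGY (log2 fold change 2.28, standard error 0.19, edgeR adjusted p = 1.21e-08) and 4.06-fold lower with ML355 than with DMSO (log2 fold change -2.02, standard error 0.19, edgeR adjusted p = 1.92e-07), where it overlapped the OV-CTRL range. *AXIN1*, the limiting scaffold protein, did the opposite, at 115, 109.8 and 99.9 CPM in OV-CTRL, 135, 121 and 147 in the NVR-labelled libraries, 61.0, 64.4 and 67.8 in OV-L1-FGGY with DMSO and 147, 171 and 188 with ML355. Its log2 fold change was -0.75 between the lines (edgeR adjusted p = 1.97e-05) and 1.39 with ML355 (edgeR adjusted p = 7.15e-08). *GSK3B*, the kinase, had means of 65.7 ± 13.5 CPM (SD, n = 3) in OV-CTRL and 117 ± 6.58 in OV-L1-FGGY with DMSO (edgeR adjusted p = 0.000125), and 70.7 ± 4.02 with ML355 (edgeR adjusted p = 0.000783). *AXIN2*, another scaffold, was at 9.59, 10.2 and 9.74 CPM in OV-CTRL and 6.70, 9.07 and 4.99 in the NVR-labelled libraries. In OV-L1-FGGY it was at 0.860, 0.578 and 1.16 CPM with DMSO and 0.0985, 0.566 and 0.631 with ML355. It was 11.4-fold lower in OV-L1-FGGY (log2 fold change -3.49, standard error 0.34, edgeR adjusted p = 9.68e-08), with no overlap, and was not called with ML355 (edgeR adjusted p = 0.0804).

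**Figure D3:**
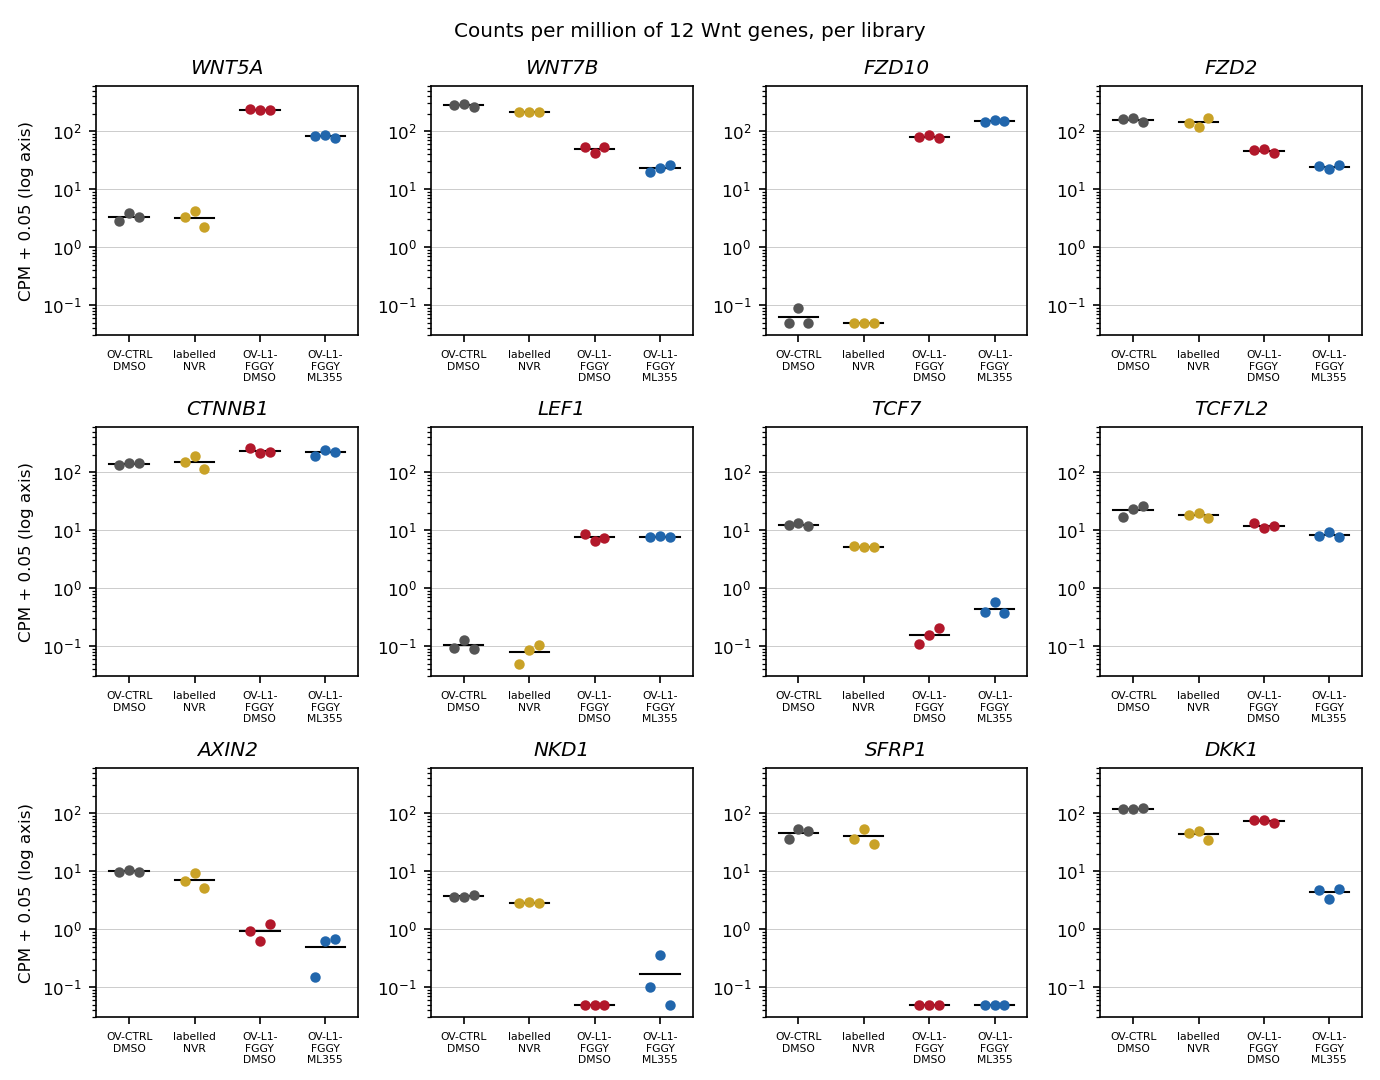
CPM + 0.05 on a log axis for 12 Wnt genes, one point per library and a bar at the mean of the 3 libraries of each group. *WNT5A*, *FZD10*, *LEF1* and *CTNNB1* are higher, and *WNT7B*, *FZD2*, *TCF7*, *TCF7L2*, *AXIN2*, *NKD1* and *SFRP1* lower, in the 2 right groups (OV-L1-FGGY with DMSO and with ML355), while *DKK1* is lowest with ML355, at a mean of 4.27 CPM.

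The TCF/LEF factors carry β-catenin to DNA. *LEF1* had 1, 2 and 1 counts in OV-CTRL and 0, 1 and 1 in the NVR-labelled libraries, against 149, 124 and 145 in OV-L1-FGGY with DMSO and 152, 150 and 142 with ML355. It was nearly absent from the first 6 libraries, the ratio of OV-L1-FGGY to OV-CTRL was 140.0, with an exact 95% interval of 54.3 to 516 (edgeR adjusted p = 3.12e-11), and ML355 left it within the spread of the DMSO libraries (log2 fold change 0.02, standard error 0.20, edgeR adjusted p = 0.959). *TCF7* had 285, 332 and 307 counts in OV-CTRL and 107, 136 and 92 in the NVR-labelled libraries, against 1, 2 and 3 in OV-L1-FGGY with DMSO and 7, 10 and 6 with ML355. Its ratio of OV-L1-FGGY to OV-CTRL was 0.00870, with an exact 95% interval of 0.00318 to 0.0190 (edgeR adjusted p = 5.89e-12). The ratio of ML355 to DMSO of 3.67, with an exact 95% interval of 1.45 to 11.03 was called (edgeR adjusted p = 0.00414) on 23 against 6 counts, and it lost the call with DESeq2 (adjusted p = 0.0108) and without replicate 1 or 2 of OV-L1-FGGY with DMSO or replicate 2 of ML355.

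*TCF7L1*, often a repressor, was at 23.6, 22.6 and 22.1 CPM in OV-CTRL, 18.96, 14.7 and 12.7 in the NVR-labelled libraries, 1.61, 2.26 and 1.81 in OV-L1-FGGY with DMSO and 0.641, 1.54 and 1.84 with ML355, 12.0-fold lower in OV-L1-FGGY (edgeR adjusted p = 1.79e-09). *TCF7L2*, the gene that the TCF4 primers matched, was at 17.0, 22.8 and 25.7 CPM in OV-CTRL, 18.5, 19.9 and 16.2 in the NVR-labelled libraries, 13.2, 10.99 and 11.7 in OV-L1-FGGY with DMSO and 7.79, 9.27 and 7.67 with ML355. The OV-L1-FGGY libraries were below those of OV-CTRL (log2 fold change -0.87, standard error 0.16, edgeR adjusted p = 0.000116). The ML355 libraries were below those with DMSO at an edgeR adjusted p just over the threshold (log2 fold change -0.54, standard error 0.17, edgeR adjusted p = 0.0119). DESeq2 put the fall just under it (adjusted p = 0.00907). So did edgeR without the filter on low counts (edgeR adjusted p = 0.00736). The same held with at least 10 counts in every library (edgeR adjusted p = 0.00921) and with the 2 groups alone (edgeR adjusted p = 0.00953). *TCF4*, the helix-loop-helix gene, was at 7.40, 7.39 and 9.97 CPM in OV-CTRL, 5.05, 5.22 and 5.65 in the NVR-labelled libraries, 5.56, 6.68 and 7.26 in OV-L1-FGGY with DMSO and 1.53, 1.08 and 1.89 with ML355. It did not differ between the lines beyond the threshold (log2 fold change -0.34, standard error 0.20, edgeR adjusted p = 0.12) and fell 4.33-fold with ML355 (log2 fold change -2.11, standard error 0.23, edgeR adjusted p = 1.15e-06). Neither gene was thus called higher in OV-L1-FGGY. Per kilobase, the 4 TCF/LEF factors summed to 9.60 ± 0.492 CPM per kb (SD, n = 3) in OV-CTRL, 6.71 ± 0.895 in the NVR-labelled libraries, 3.60 ± 0.285 in OV-L1-FGGY with DMSO and 2.98 ± 0.243 with ML355.

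Of 9 tested regulators, 2 were higher and 5 lower in OV-L1-FGGY than in OV-CTRL (22.2% and 55.6%, against 32.5% and 36.2% of all genes), and 3 fell with ML355 (33.3%, against 23.5%). *SFRP1*, a secreted protein that binds and blocks Wnt ligands, was at 36.3, 52.2 and 48.3 CPM in OV-CTRL and 36.4, 52.3 and 29.8 in the NVR-labelled libraries. It had 0 counts in all 6 libraries of OV-L1-FGGY with DMSO or ML355, at least 284-fold lower with DMSO than OV-CTRL (edgeR adjusted p = 4.57e-10). *NKD1*, an intracellular inhibitor, had 85, 90 and 101 counts in OV-CTRL and 56, 77 and 51 in the NVR-labelled libraries. In OV-L1-FGGY it had 1, 6 and 0 counts with ML355 and 0 in all 3 DMSO libraries. It was at least 22.8-fold lower in OV-L1-FGGY (edgeR adjusted p = 1.59e-07), and the 7 counts with ML355, 6 of them in replicate 2, did not pass the threshold (edgeR adjusted p = 0.0302). Its relative *NKD2* was at 17.9, 15.5 and 14.4 CPM in OV-CTRL, 28.1, 24.8 and 34.0 in the NVR-labelled libraries, 7.40, 8.52 and 10.1 in OV-L1-FGGY with DMSO and 6.16, 3.19 and 7.93 with ML355, with a log2 fold change of -0.87 between the lines (edgeR adjusted p = 0.00267). That call was lost without replicate 1 or 2 of OV-L1-FGGY with DMSO or replicate 1 of OV-CTRL.

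*DKK1*, a secreted inhibitor that binds LRP5 and LRP6, fell more than any other tested Wnt gene with ML355. It was at 117, 117 and 121 CPM in OV-CTRL, 45.2, 48.9 and 34.3 in the NVR-labelled libraries, 75.8, 76.9 and 67.0 in OV-L1-FGGY with DMSO and 4.73, 3.30 and 4.78 with ML355. No 2 groups overlapped. *DKK1* was 1.62-fold lower in OV-L1-FGGY than in OV-CTRL (log2 fold change -0.69, standard error 0.14, edgeR adjusted p = 0.000248), a further 17.2-fold lower with ML355 (log2 fold change -4.10, standard error 0.17, edgeR adjusted p = 4.25e-11) and 2.76-fold lower in the NVR-labelled libraries than in OV-CTRL (log2 fold change -1.46, standard error 0.14, edgeR adjusted p = 9.16e-07). *DKK3*, a relative that does not bind LRP6 in the same way, was at 12.4, 12.8 and 11.9 CPM in OV-CTRL, 19.1, 21.6 and 15.7 in the NVR-labelled libraries, 10.4, 10.4 and 8.47 in OV-L1-FGGY with DMSO and 1.23, 1.03 and 1.79 with ML355. It fell 7.23-fold with ML355 (log2 fold change -2.85, standard error 0.21, edgeR adjusted p = 1.71e-08), while *USP47*, on the other strand over 47.5% of its exon length, had a log2 fold change of 0.09. Whether the counting used strand is not stated. It is thus not known whether reads of the overlapping parts of *DKK3*, *WNT2B* and *FZD4* were counted, dropped or given to the partner. *AXIN2* shares 25.3% of its exon length with a gene on its own strand, which had 0 counts in the 12 libraries.

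Regulators that act on receptors and ligands at the cell surface moved apart. *LGR4*, a receptor for R-spondins that raises Wnt signalling, was at 80.1, 97.6 and 111 CPM in OV-CTRL, 57.3, 75.9 and 43.7 in the NVR-labelled libraries, 328, 295 and 297 in OV-L1-FGGY with DMSO and 186, 256 and 208 with ML355. It was 3.19-fold higher in OV-L1-FGGY (log2 fold change 1.67, standard error 0.18, edgeR adjusted p = 3.02e-07) and not called with ML355 (edgeR adjusted p = 0.022). All ML355 libraries of *LGR4* lay below those with DMSO, though. The fall was called in the fit of the 2 groups alone (log2 fold change -0.49, edgeR adjusted p = 0.00139). It was also called without the filter on low counts (-0.52, edgeR adjusted p = 0.000389). *LGR5*, its relative and a stem cell marker, had at most 3 counts in any library, and the inhibitor *DKK4* had 0 in all 12. *NOTUM*, an enzyme that inactivates Wnt ligands, was at 1.30, 1.80 and 1.84 CPM in OV-CTRL, 0.801, 0.778 and 1.54 in the NVR-labelled libraries, 15.3, 17.4 and 14.5 in OV-L1-FGGY with DMSO and 10.4, 11.1 and 17.9 with ML355, 9.54-fold higher in OV-L1-FGGY (edgeR adjusted p = 9.12e-09). *ZNRF3*, a ligase that removes Frizzled receptors, was at 16.7, 23.1 and 25.9 CPM in OV-CTRL, 16.2, 17.5 and 13.1 in the NVR-labelled libraries, 13.5, 9.83 and 11.2 in OV-L1-FGGY with DMSO and 3.65, 5.41 and 7.72 with ML355. It was lower in OV-L1-FGGY (-0.92, edgeR adjusted p = 0.00131) and with ML355 (-1.05, edgeR adjusted p = 0.00144), while *RNF43*, of the same family, had group means between 10.03 and 13.2 CPM.

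**Figure D4:**
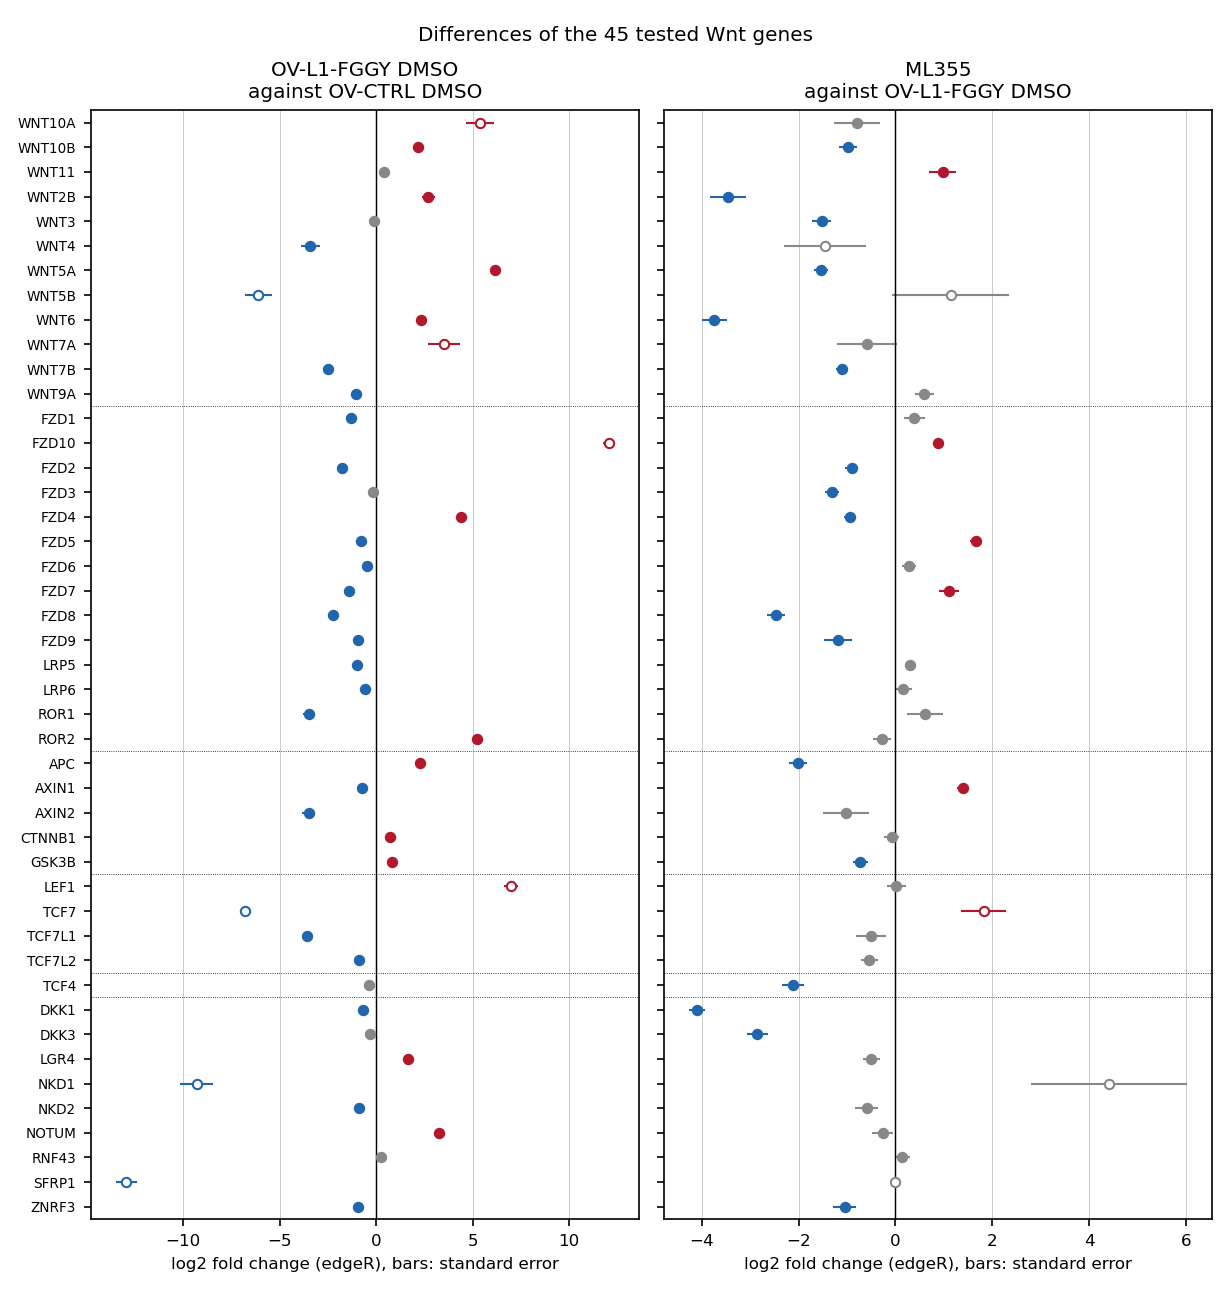
Log2 fold changes (edgeR) of the 45 tested Wnt genes with standard errors, for OV-L1-FGGY against OV-CTRL with DMSO (left) and ML355 against OV-L1-FGGY with DMSO (right), on axes of different range. Red points are higher and blue points lower at an adjusted p under 0.01, grey points are neither, and open points mark genes with at most 3 counts in every library of 1 group, whose fitted value depends on the prior count. The left panel holds 15 red and 24 blue points and the right panel 6 red and 17 blue.

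Between the NVR-labelled libraries and OV-CTRL, 33 of the 45 tested Wnt genes were not called (where 14.5% of all genes were higher and 15.3% lower). Higher than in OV-CTRL were *WNT6*, *FZD4*, *FZD7*, *FZD9*, *DKK3* and *NKD2*, and lower were *WNT3*, *WNT10B*, *ROR1*, *TCF7*, *DKK1* and *LGR4*, by log2 fold changes from -1.64 (*WNT10B*) to 1.53 (*WNT6*). *TCF7* was 2.38-fold lower than in OV-CTRL without overlap (log2 fold change -1.25, standard error 0.17, edgeR adjusted p = 3.68e-05). The call of *DKK3* (edgeR adjusted p = 0.00689) failed in 5 of the 6 fits that left out a library of either group, all but that without NVR-labelled replicate 3, and with the library size alone as scaling (edgeR adjusted p = 0.0572). Those of *NKD2* (edgeR adjusted p = 0.00496) and *LGR4* (edgeR adjusted p = 0.00433) each failed in 4 of these 6 fits, both without replicate 1 or 3 labelled NVR or replicate 2 or 3 of OV-CTRL, and that of *NKD2* also with the library size alone (edgeR adjusted p = 0.0127). Within this group, replicate 2 had the highest value in 28 and replicate 3 the lowest in 27 of the 44 tested genes with a count there, against 41.9% and 41.2% of all genes tested. Such an order was not particular to this group. With ML355, replicate 3 was highest in 24 and replicate 1 lowest in 25 of 44 (34.7% and 36.2% of all genes). In OV-CTRL, replicate 1 was lowest in 25 and replicate 3 highest in 21 of 45 (42.5% and 37.6%). In OV-L1-FGGY with DMSO, no replicate was highest or lowest in more than 18 of 43. Against OV-L1-FGGY with DMSO, the NVR-labelled libraries had more *SFRP1* (at least 246-fold higher) and less *WNT5A* (log2 fold change -6.18, edgeR adjusted p = 8.20e-14). Because *FGGY* goes against the label of these libraries, these values are given by label and not as an effect of NVR.

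Other genes of the pathway were counted from lists. Both ligand-processing genes were higher in OV-L1-FGGY, namely *PORCN*, which adds the lipid (20.4 ± 1.29 CPM in OV-CTRL and 62.5 ± 3.99 in OV-L1-FGGY with DMSO, SD, n = 3, edgeR adjusted p = 8.77e-10), and *WLS*, which carries ligands to the surface (19.96 ± 0.801 and 68.8 ± 2.27 CPM, edgeR adjusted p = 9.77e-10). With ML355 *PORCN* rose to 128 ± 8.93 CPM (edgeR adjusted p = 4.40e-07) and *WLS* fell to 36.6 ± 1.74 (edgeR adjusted p = 6.16e-06). Of 22 other secreted and membrane regulators, 9 were tested, with 2 higher and 5 lower in OV-L1-FGGY (22.2% and 55.6%, against 32.5% and 36.2% of all genes, and a median log2 fold change of -1.14, against -0.11). With ML355 1 rose and 4 fell (11.1% and 44.4%, against 21.3% and 23.5%, and a median of -0.35, against 0.00). *RSPO3*, an R-spondin and thus a ligand of LGR4, went from 33.4 ± 3.07 CPM with DMSO to 7.12 ± 2.03 with ML355 (log2 fold change -2.23, standard error 0.17, edgeR adjusted p = 2.32e-08). *LGR6* went from 6.42 ± 0.791 to 0.647 ± 0.293 CPM (edgeR adjusted p = 8.19e-08), and *KREMEN1*, a DKK1 co-receptor, was 5.59-fold lower in OV-L1-FGGY (edgeR adjusted p = 7.18e-09). *TRABD2A*, a protease that cuts Wnt ligands, was 9.30-fold higher in OV-L1-FGGY (edgeR adjusted p = 1.08e-12). *SFRP5*, a relative of *SFRP1*, had a ratio of OV-L1-FGGY to OV-CTRL of 0.00370, with an exact 95% interval of 0.0000934 to 0.0207 (edgeR adjusted p = 2.15e-08).

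Of 21 genes of the cytoplasmic relay, all tested, 5 were higher and 9 lower in OV-L1-FGGY (23.8% and 42.9%, against 32.5% and 36.2% of all genes, with a median log2 fold change of -0.42, against -0.11). With ML355 8 rose and 4 fell (38.1% and 19.05%, against 21.3% and 23.5%, with a median of 0.35, against 0.00). *BTRC*, which recognises marked β-catenin for destruction, was at 18.99 ± 1.11 CPM (SD, n = 3) in OV-CTRL, 81.6 ± 6.995 in OV-L1-FGGY with DMSO (edgeR adjusted p = 1.15e-10) and 16.6 ± 1.92 with ML355 (edgeR adjusted p = 5.15e-10). *DVL2*, which passes the signal on from Frizzled, differed the other way, at 144 ± 6.78 CPM in OV-CTRL, 54.5 ± 3.59 in OV-L1-FGGY with DMSO (edgeR adjusted p = 2.25e-08) and 126 ± 19.9 with ML355 (edgeR adjusted p = 4.65e-07). *DVL1*, its relative, had a log2 fold change of 1.15 with ML355 (edgeR adjusted p = 8.88e-06), and the kinase gene *CSNK1D* of -1.75 between the lines (edgeR adjusted p = 1.16e-10). Of 19 nuclear partners, all tested, 5 were higher and 6 lower in OV-L1-FGGY (26.3% and 31.6%, against 32.5% and 36.2% of all genes, with a median of -0.06) and 2 rose and 5 fell with ML355 (10.5% and 26.3%, against 21.3% and 23.5%, with a median of -0.15). The co-repressors *TLE1* and *TLE2* moved apart with ML355 (log2 fold change 1.28, edgeR adjusted p = 2.88e-07, and -2.48, edgeR adjusted p = 1.25e-08). The related genes *TBL1X* and *TBL1XR1* had log2 fold changes of 1.24 and 1.42 between the lines (edgeR adjusted p = 1.61e-08 and edgeR adjusted p = 1.22e-08), and *TBL1X* of -1.18 with ML355 (edgeR adjusted p = 1.22e-07). *SOX17*, a β-catenin partner, was at 7.66 ± 1.68 CPM in OV-CTRL and at 0 in all 6 OV-L1-FGGY libraries with DMSO or ML355 (edgeR adjusted p = 5.32e-09). Of 28 genes of the β-catenin-independent arms, 23 were tested, with 8 higher and 9 lower in OV-L1-FGGY (34.8% and 39.1%, against 32.5% and 36.2% of all genes, with a median of -0.06), and 4 that rose and 6 that fell with ML355 (17.4% and 26.1%, against 21.3% and 23.5%, with a median of 0.00). *FUZ*, a planar polarity effector gene, was at 10.2 ± 0.819 CPM (SD, n = 3) in OV-CTRL and 0.365 ± 0.241 in OV-L1-FGGY with DMSO (log2 fold change -4.81, standard error 0.32, edgeR adjusted p = 1.20e-09). *RYK*, another WNT5A receptor, was 2.95-fold higher in OV-L1-FGGY (edgeR adjusted p = 1.48e-09), *MAPK8*, the JNK1 kinase gene, 2.59-fold (edgeR adjusted p = 1.17e-08), and *VANGL1*, a planar polarity gene, fell 2.49-fold with ML355 (edgeR adjusted p = 3.27e-07). *PRICKLE3* and *CAMK2D* rose with ML355 (log2 fold change 1.13, edgeR adjusted p = 6.44e-07, and 1.04, edgeR adjusted p = 1.85e-05).

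Of 29 textbook targets of β-catenin signalling, 24 were tested. In OV-L1-FGGY against OV-CTRL 4 were higher and 15 lower (16.7% and 62.5%, against 32.5% and 36.2% of all genes), with a median log2 fold change of -1.72 against -0.11 over all genes. Fitted log2 fold changes of the 24 ran from -8.14 to 6.95. *EPHB2*, *BMP4* and *JUN*, chosen by smallest adjusted p, were all lower, and the 4 higher targets are not named here. *EPHB2* was at 72.4 ± 1.35 CPM (SD, n = 3) in OV-CTRL and 1.86 ± 0.142 in OV-L1-FGGY with DMSO (log2 fold change -5.27, standard error 0.14, edgeR adjusted p = 2.30e-14), and *BMP4* at 29.5 ± 2.07 and 0.166 ± 0.156 (edgeR adjusted p = 3.57e-12). With ML355, 8 rose and 6 fell (33.3% and 25%, against 21.3% and 23.5%), with a median of -0.02 (0.00 with genes absent from a group set at their bound). *JUN*, also a target of stress kinases, was at 408 ± 16.02 CPM in OV-CTRL, 40.3 ± 1.51 in OV-L1-FGGY with DMSO (log2 fold change -3.34, standard error 0.15, edgeR adjusted p = 9.56e-12) and 396 ± 85.6 with ML355 (log2 fold change 3.30, standard error 0.15, edgeR adjusted p = 1.64e-10), so that the mean with ML355 lay near that of OV-CTRL. *VEGFA* rose from 105 ± 14.3 to 467 ± 52.4 CPM (edgeR adjusted p = 1.06e-07) and *SOX4* fell from 67.3 ± 2.75 to 20.9 ± 5.00 (edgeR adjusted p = 3.59e-06).

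Promoters of the 54 genes, from 250 bases before to 50 after the RefSeq start (GRCh38.p14), were searched on both strands for CTTTGAT and CTTTGAA, forms of the site that TCF/LEF factors bind. *DKK1* alone held a match (1.9% of the 54), where 6.9% of 35116 promoters did, and it is shown because *DKK1* fell most with ML355. The letters printed span chr10:52314175-52314203 on the plus strand, and the capitals mark the match, which begins 95 bases before the start site.
DKK1 promoter: ccctcccagcgCTTTGAAatcccatcccg
The match describes these letters, and whether a factor bound there was not measured in these libraries.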

How the data were processed

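Per the labels and methods, reads were aligned to hg38 with STAR 2.5.3a and counted per gene with HTSeq 0.11.2. The authors deposited raw gene counts, with the annotation release, strand and multi-mapping settings not given in the sources used here. The labels and the methods name different library kits. Counts of 12 libraries were fitted across 4 group means with edgeR 4.0.16 in R 4.3.3 (TMM scaling, filterByExpr, robust quasi-likelihood test, 17849 genes tested, Benjamini-Hochberg adjustment over all of them), and a standard error is the fold change divided by the root of F. Genes were matched to GENCODE 44, and figures drawn with matplotlib 3.10.9. DESeq2 1.42.0, limma 3.58.1 with voom, other scalings and filters, a replicate block and leaving out each library were the alternatives. On simulated counts for the ML355 comparison, with 200 of 14500 genes changed by 1 on the log2 scale, edgeR recovered 83.5% with 2 false calls. The simulation held 2 groups and genes with a mean of at least 10 counts, with equal numbers raised and lowered. In the libraries themselves, 21.3% of genes were called higher and 23.5% lower with ML355, so that these rates need not hold for them.

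The Wnt genes and other gene lists were chosen with earlier results of these data known. Values per library are given for *WNT3A*, *WNT5A*, *CTNNB1*, *TCF4*, *TCF7L2* and each Wnt gene called and changed by 1 or more on the log2 scale in 1 or more comparisons and a mean of at least 1 CPM in a group. Of the other lists, genes were taken from those with the smallest adjusted p and at least 1 CPM. Intervals cover counting error only.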

Additional observations from a re-analysis of the deposited data

How the results depend on the processing

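Over the 45 tested Wnt genes in 4 comparisons, no called fold change reversed under the alternatives run: of 2461 values for 180 fold changes, 2362 kept their side of the threshold, 70 lost the call and 29 gained it. Counts of Wnt genes in this section are given without the share of all genes called under the same setting. A change in the Wnt genes thus cannot be told here from a change in all genes. With at least 10 counts required in every library, the genes higher in OV-L1-FGGY than in OV-CTRL went from 15 to 9. Those lower in the NVR-labelled libraries than in OV-L1-FGGY went from 17 to 11. That filter kept 11918 genes, against 17849 in the main fit. With a change of 1 or more on the log2 scale also required, the genes lower in OV-L1-FGGY went from 24 to 14, and those higher in the NVR-labelled libraries than in OV-CTRL from 6 to 3. The latter were also 3 with the library size alone as scaling, and the lower ones were 11 at an adjusted p under 0.05. Without 1 replicate, OV-L1-FGGY against OV-CTRL gave 15 higher and 20 to 22 lower. ML355 gave 4 to 7 higher, with 4 without replicate 1 of OV-L1-FGGY with DMSO or replicate 2 of ML355, and 16 to 18 lower. The NVR-labelled libraries gave 4 to 6 higher and 5 to 7 lower than OV-CTRL, with 4 higher without replicate 2 or 3 of OV-CTRL or replicate 1 labelled NVR, and 19 to 23 higher and 16 to 17 lower than OV-L1-FGGY. Libraries with the same replicate number did not deviate together throughout (correlations of deviations -0.354 to 0.170). With 3 replicates per group these values cannot settle whether the samples were paired, and the main fit used no pairing. A replicate block gave 15 higher and 23 lower between the lines, 5 and 17 with ML355, and 5 and 6, and 21 and 17, for the NVR-labelled libraries, and it ended the calls of *LRP6* between the lines (edgeR adjusted p = 0.0104), *WNT11* with ML355 (0.0139), *DKK3* between the NVR-labelled libraries and OV-CTRL (0.0134) and *WNT9A* between them and OV-L1-FGGY with DMSO (0.0108). With library size alone, the median of all genes shifted by 0.08, -0.13, -0.15 and -0.24 on the log2 scale in the 4 comparisons, and the share higher among genes called went from 47.6% to 39.3% with ML355 and from 51.9% to 45.9% for the NVR-labelled libraries against OV-L1-FGGY. The 7 untested ligands, *WNT3A* among them, had too few counts for the test at this depth.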
